A study of Mus musculus with 18 samples.

Results

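The colon of WT mice in recovery after dextran sulfate sodium (DSS, a sulfated polymer that injures the epithelium of the colon when drunk and so brings on colitis) was compared with the colon of untreated WT mice. The comparison rests on 6 of the 18 RNA-seq libraries of the series, chosen by their genotype label, WT, and their treatment label, DSS-Recovery for 3 and Control for 3. The other 12 libraries came from WT mice given the carcinogen azoxymethane with DSS and from *Cldn2*KO mice, which lack the tight junction protein claudin-2, under the same 3 conditions. They entered the model for the spread between replicates, and the recovery and control libraries of *Cldn2*KO mice are set beside the WT values at the end. The study's methods name C57BL/6 and *Cldn2*KO mice, matched by age and sex. The study names the distal colon as the source of the RNA of recovering mice, and as the only region used in its work on colitis in WT mice. Ages, the dose and length of the DSS treatment and the length of recovery were not given in the sources used here, and the treatment text attached to every sample, controls included, describes azoxymethane with repeated DSS. The title of each recovery library carries its own code number. The titles do not say whether each code is a separate animal, and nothing in the labels says how the 3 control libraries were obtained. The p-values therefore measure the spread between these libraries.

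The lining of the colon is a single sheet of cells that is renewed from stem cells at the base of crypts and holds absorptive colonocytes, mucus-secreting goblet cells and hormone-secreting enteroendocrine cells. Tight junctions, built from claudins and their scaffold proteins, seal the sheet, and claudin-2 forms pores for cations and water that are found mainly in the crypts. DSS strips part of this sheet and lets bacteria reach the tissue. During healing, crypt cells divide and spread, and the sheet, its mucus and its immune cells are rebuilt. Along its length the colon is patterned by Hox genes, with the members at the 5′ end of each cluster active towards the anus.

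Total counts were 17.6 to 25.4 M reads in the controls and 17.9 to 26.0 M reads in recovery, and 21113 to 22730 genes were detected per library with 1 read or more. Expression is given in counts per M reads (CPM) after TMM scaling in edgeR, and the values of a gene are given in the order of replicates 1, 2 and 3. A gene is described as called, or as having risen or fallen, where edgeR's quasi-likelihood test gave a Benjamini-Hochberg adjusted p under 0.05 over the 16937 genes tested. The libraries did not all follow their groups. *Xist*, which is transcribed from the inactive X chromosome of females, stood at 0.118, 0.327 and 1.1 CPM in the controls and at 1.02, 865 and 1742 CPM in recovery, and the Y-linked *Ddx3y* at 76.9, 101 and 86.2 CPM against 91.5, 0 and 0 CPM. The controls and recovery replicate 1 therefore carried male transcripts and recovery replicates 2 and 3 female ones, and *Xist* was the 1 called gene of 5 sex-linked ones (log2 fold change 10.76, SE 3.05, adjusted edgeR p 0.0218; not called without any 1 of the controls). With a covariate for *Xist* above 10 CPM 2359 genes were called in place of 3767. Of the genes described below as called, *Ccr7*, *Cd4*, *Cd74*, *Cd79a*, *Cela1*, *Ciita*, *H2-Oa*, *Hoxa11*, *Hoxb7*, *Meis1*, *Pcna*, *Reg3d*, *Sdc1*, *Slc10a2* and *Slc26a3* were not called with it. WT control replicate 2 stood with the recovery libraries in the Hox genes described next. The main counts are therefore also given with control replicate 2 left out or with it as the only control. Unless a library is named, the call of a gene described below held when any 1 of the 6 libraries was left out. That statement does not cover genes described only under the results flagged for a closer look and the other observations.

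Recovery against control gave 3767 called genes, 22.2% of those tested, 1698 higher (10.0%) and 2069 lower (12.2%), and the median log2 fold change of all genes tested was -0.04. The 3 libraries of each group did not overlap in 3417 of the called genes, and over all genes tested 37.7% did not overlap. With control replicate 2 left out 4348 genes were called (25.7%), 2062 higher (12.2%) and 2286 lower (13.5%). With it as the only control 1090 were called (6.44%), 475 higher (2.8%) and 615 lower (3.63%), where the lone library is assumed to vary as the other groups did. Of the 3767 genes, 3615 had the same sign against control replicate 2 alone, and 782 were also called there with that sign, 320 higher and 462 lower.

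Most posterior Hox genes, transcription factors that mark the distal end of the colon, separated control replicates 1 and 3 from the other 4 WT libraries, with *Hoxa11* as an exception. *Hoxb13* stood at 465, 0.327 and 456 CPM in the controls and at 0.203, 0.502 and 0.0591 CPM in recovery (log2 fold change -10.29, SE 1.68, adjusted edgeR p 0.00147). *Hoxd13* stood at 222, 0.262 and 224 CPM against 0, 0.0717 and 0.118 CPM, from 9725 reads in the controls and 3 in recovery, a ratio of 3360 with a 95% counting interval of 1150 to 16300. Control replicates 1 and 3 were high in both genes, and control replicate 2 was near the recovery libraries. *Hoxd12* had 511 reads in the controls and none in recovery, at least 176-fold lower when 3 reads are allowed over the recovery group, and none of the 511 reads came from control replicate 2.

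All 8 posterior Hox genes tested were called lower, against 12.2% of all genes, with a median log2 fold change of -5.54. Another 4 of the 12 listed were too low to test. *Hoxa11*, at 2.36, 3.14 and 1.75 CPM against 1.1, 0.717 and 0.651 CPM, lost its call whichever WT library was left out, with an adjusted p between 0.052 and 0.127. Against control replicate 2 alone 2 of the 8 were called, *Hoxa10* at 51.5, 7.79 and 51.6 CPM against 2.2, 1.94 and 1.89 CPM and *Hoxd10* at 22, 7.46 and 21 CPM against 1.38, 2.08 and 1.72 CPM. These 2 genes were intermediate in control replicate 2, with log2 fold changes against it of -1.95 (adjusted p 0.00085) and -2.12 (adjusted p 0.00349). Genes nearer the 3′ end of the clusters, active further forward along the gut, included the opposite pattern. *Hoxb9* stood at 38.3, 70.0 and 40.7 CPM against 103, 124 and 104 CPM (log2 fold change 1.15, SE 0.20, adjusted edgeR p 0.00197), with control replicate 2 between the other controls and recovery. *Hoxb7* stood at 0.629, 26.1 and 1.04 CPM against 44, 70.0 and 48.3 CPM (log2 fold change 2.56), and its adjusted p of 0.0493 rose to between 0.0686 and 0.113 without control replicate 1 or 3 or any 1 recovery library. Of the 20 anterior and middle Hox genes tested 3 rose and 3 fell (15% each way, against 10.0% and 12.2% of all genes). Without control replicate 2, where 12.2% of all genes rose and 13.5% fell, the counts were 10 and 4. Without another library 1 or 2 rose. The labels name the tissue only as colon, so treatment and position along the colon cannot be told apart for genes that follow this pattern. Control replicate 2 was itself between the other controls and recovery in *Hoxa10*, *Hoxd10* and *Hoxb9*. The same limit therefore holds for the genes below that differed from all 3 controls.

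Most of the 15 lower genes chosen by the size of the fall shared it. *Tgm3*, a transglutaminase that crosslinks proteins of cornified surfaces, stood at 1126, 0.917 and 883 CPM in the controls against 0.285, 0.215 and 0.237 CPM in recovery (log2 fold change -11.35, SE 1.84, adjusted edgeR p 0.00145). *Trpv6*, a calcium entry channel, stood at 91.7, 0.131 and 89.4 CPM against 0.0814, 0.0717 and 0.0591 CPM, and *Ctse*, which encodes the protease cathepsin E, at 126, 4.25 and 105 CPM against 0.895, 2.15 and 1.42 CPM. In all 3 genes control replicate 2 was near the recovery libraries, and against it alone their adjusted p were 0.35, 0.717 and 0.103. The keratinocyte protease gene *Casp14* had 1568 reads in the controls and 2 in recovery, a ratio of 812 (95% counting interval 224 to 6710), and also followed control replicates 1 and 3. *Tgm3* and *Casp14* were the 2 called genes among 13 of the squamous list tested, and *Trpv6* was the only one called among 6 calcium uptake genes, where without control replicate 2 3 rose and 1 fell. The 8 squamous keratin genes tested were all low. *Krt14* reached 11.1 CPM and *Krt10* 5.67 CPM in a library, and *Krt4* and *Krt6a* no more than 0.0548 and 0.165 CPM. *Krt13* had 42 reads in the controls and 2 in recovery, a ratio of 21.8 (95% counting interval 5.66 to 185). The desmosomal cadherin gene *Dsg3* had 25 and 2, a ratio of 12.9 (3.23 to 113). No read of either came from control replicate 2, and their adjusted edgeR p were 0.165 and 0.141. *Krt5*, *Krt1* and *Trp63* were too low to test. Of the 15, 3 were also called against control replicate 2 alone, *Trpv3*, *Slc37a2* and *Hoxa9*. *Slc37a2*, which encodes a sugar phosphate transporter, stood out from the rest, at 340.1, 1099 and 279 CPM in the controls and 5.74, 0.574 and 8.99 CPM in recovery, with control replicate 2 the highest library (log2 fold change -6.79, SE 1.45, adjusted edgeR p 0.00543).

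**Figure D1:**
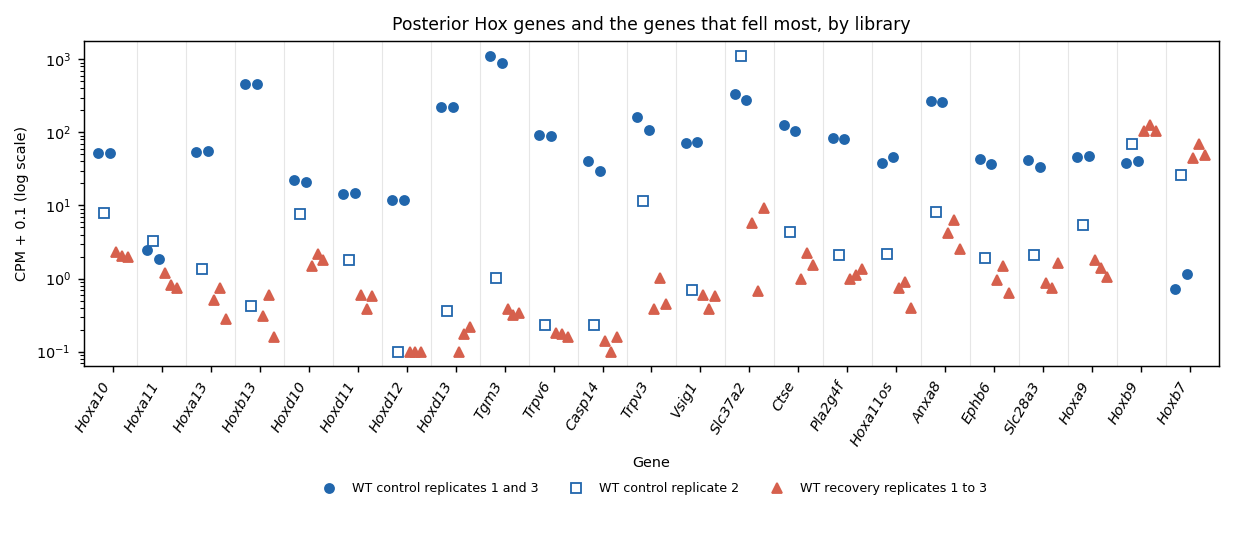
Level of the posterior Hox genes, of the genes with the largest falls and of Hoxb9 and Hoxb7 in each WT library, as CPM + 0.1 on a log axis. Circles are control replicates 1 and 3, open squares control replicate 2 and triangles the 3 recovery libraries, and the open squares lie near the triangles for most genes, with Slc37a2 at 1099 CPM in control replicate 2 as an exception.

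Other genes differed from all 3 controls, control replicate 2 included. *Slc13a1* (GRCm38 chromosome 6, 24088283 to 24168092), the sulfate transporter of absorptive epithelium, stood at 0.432, 2.36 and 0.439 CPM in the controls and at 181, 276 and 201 CPM in recovery. Its log2 fold change was 7.76 (SE 0.59, adjusted edgeR p 1.78e-05) against all controls and 6.54 (adjusted p 0.00085) against control replicate 2 alone. *Sis*, which encodes the sucrase-isomaltase of the small intestinal brush border, stood at 0.0786, 1.9 and 0 CPM against 29.6, 80.8 and 182 CPM (log2 fold change 7.37, SE 1.11, adjusted edgeR p 0.00104). In both genes the lowest recovery library was above the highest control.

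Members of the *Cyp3a* family, cytochromes P450 that oxidise drugs, steroids and bile acids, rose with them. *Cyp3a44* had 2 reads in the controls and 3821 in recovery, a ratio of 1840 (95% counting interval 510 to 15200), and *Cyp3a11*, with no reads in the controls and 82 in recovery, was at least 26.4-fold higher when 3 reads are allowed over the control group. *Cyp3a25* stood at 0, 0.589 and 0 CPM against 26.9, 31.3 and 65.2 CPM. These genes have close copies on chromosome 5, and how reads were shared among them was not stated. The stress-response factor gene *Nupr1* stood at 67.7, 45.9 and 71.4 CPM against 291, 1908 and 519.7 CPM (log2 fold change 3.88, SE 0.59, adjusted edgeR p 0.000999), with recovery replicate 2 far above the others. *Lpo*, which encodes lactoperoxidase, an enzyme that makes antibacterial oxidants in secretions, stood at 9.12, 1.96 and 8.39 CPM against 86.2, 47.6 and 75.9 CPM. *Ccn3*, a secreted matrix-associated protein, stood at 11, 4.19 and 22.4 CPM against 119, 134 and 136 CPM (adjusted edgeR p 0.000459 and 0.000837). *Angptl4*, a lipase inhibitor induced by fatty acids, stood at 2.12, 4.32 and 1.1 CPM against 82.3, 34.5 and 85.2 CPM (log2 fold change 4.76, SE 0.62, adjusted edgeR p 0.000478; 0.0238 against control replicate 2 alone).

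Among the genes that fell against each control, *Jchain* (GRCm38 chromosome 5, 88519809 to 88527891), the joining chain of secreted IgA, stood at 719, 689.5 and 824 CPM in the controls and 111, 122 and 86.7 CPM in recovery (log2 fold change -2.80, SE 0.53, adjusted edgeR p 0.00302). *Gsdmcl2*, a pore-forming gasdermin with close copies, stood at 104, 122 and 95.6 CPM against 2.77, 13.4 and 2.07 CPM (log2 fold change -4.17), and *Fmo1*, a flavin monooxygenase, at 22.7, 14.6 and 15.8 CPM against 3.13, 1.79 and 2.19 CPM (log2 fold change -2.89). *Rnf152*, an E3 ubiquitin ligase gene, stood at 51.4, 212 and 41.2 CPM against 3.13, 0.861 and 10.7 CPM, and *Aqp8*, the water channel of surface colonocytes, at 846, 2303 and 643 CPM against 50.8, 199.5 and 40.0 CPM. Both were highest in control replicate 2 and lower in every recovery library than in any control. The call of *Aqp8* (log2 fold change -3.71, adjusted edgeR p 0.023) was lost without control replicate 2 (adjusted p 0.0506), without recovery replicate 1 (0.0739) and without recovery replicate 3 (0.0823).

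**Figure D2:**
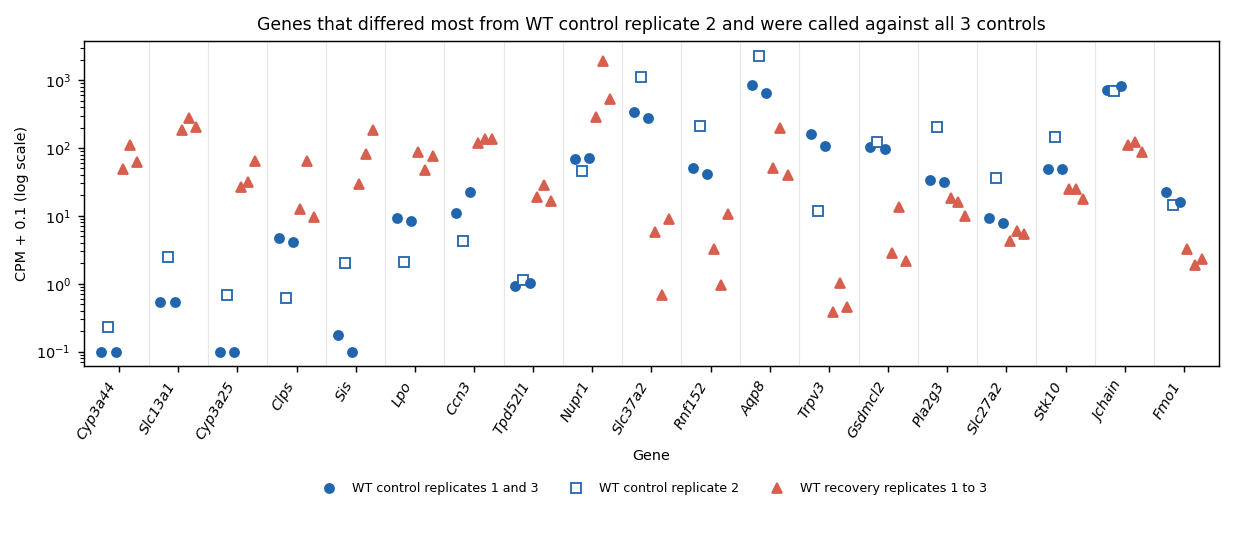
Level of 9 higher and 10 lower genes among those with the largest difference from WT control replicate 2 that were also called against all 3 controls, as CPM + 0.1 on a log axis. Symbols are as in the plot of the Hox genes, and for each gene the 3 triangles lie on one side of all 3 control symbols, since only genes whose groups do not overlap were chosen.

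The study examined claudin-2 and genes of growth, survival and inflammation in the recovering colon, and partly chose them on these libraries, so their directions are not independent evidence. Of 21 such genes tested 4 rose (19%, against 10.0% of all genes) and 6 fell (28.6%, against 12.2%), with a median log2 fold change of -0.18, and *Il6* was too low to test. The number that fell was 3 without recovery replicate 2. With control replicate 2 as the only control 2 rose and 4 fell, with a median of 0.15. *Cldn2* stood at 131, 44.5 and 127 CPM in the controls and 504, 309 and 486 CPM in recovery, and its log2 fold change was larger against control replicate 2 alone (3.28, adjusted p 0.00345) than against all 3 controls (2.10). *Egf*, an activating ligand of the receptor EGFR, stood at 1.26, 1.31 and 1.48 CPM against 5.05, 6.1 and 5.38 CPM, a low level that nonetheless did not overlap between groups, and was not called against control replicate 2 alone (adjusted p 0.0514). The related ligand gene *Ereg* stood at 3.66, 6.35 and 3.84 CPM against 18.8, 5.45 and 23.7 CPM (adjusted p 0.0823), with recovery replicate 2 below the highest control. The receptor gene *Egfr* itself stood at 53.6, 38 and 52 CPM against 39, 47.3 and 40.2 CPM (log2 fold change -0.18, adjusted p 0.528). Over the EGF family and its feedback genes 1 of 20 rose (5%, against 10.0% of all genes) and 4 fell (20%, against 12.2%), and 1 to 3 fell when 1 library was left out (1 without control replicate 1 or any 1 recovery library).

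Growth and survival genes of this list moved in both directions. *Nifk*, whose protein binds Ki-67 and acts in ribosome assembly, stood at 31.3, 31.4 and 40.9 CPM against 68.2, 93 and 65.3 CPM. The cell cycle inhibitor gene *Cdkn1a* stood at 306, 261 and 271 CPM against 114, 118 and 142 CPM and the brush border villin gene *Vil1* at 933, 1314 and 884 CPM against 584, 515 and 536 CPM, both lower in every recovery library than in any control and called against control replicate 2 alone (adjusted p 0.0429 and 0.0238). *Pcna*, the sliding clamp of DNA replication, stood at 92.7, 77.8 and 104 CPM against 159, 155 and 135 CPM (adjusted p 0.0249), and lost its call without control replicate 1, control replicate 2, recovery replicate 1 or recovery replicate 2 (adjusted p 0.064 to 0.0759). *Mki67*, which encodes the proliferation marker Ki-67, stood at 411, 152 and 284 CPM against 269, 209 and 178 CPM (log2 fold change -0.37, adjusted p 0.602), and *Birc5*, which encodes Survivin, at 71.8, 29.5 and 47.5 CPM against 55.8, 38.5 and 37.1 CPM (log2 fold change -0.18, adjusted p 0.829). *Ly6a*, which encodes the repair marker SCA-1, stood at 2018, 255 and 2134 CPM against 684, 537 and 558 CPM (log2 fold change -1.31, adjusted p 0.0969). The sign of these last 3 genes depended on the controls, with log2 fold changes of 0.53, 0.57 and 1.22 against control replicate 2 alone, the lowest control for all 3.

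**Figure D3:**
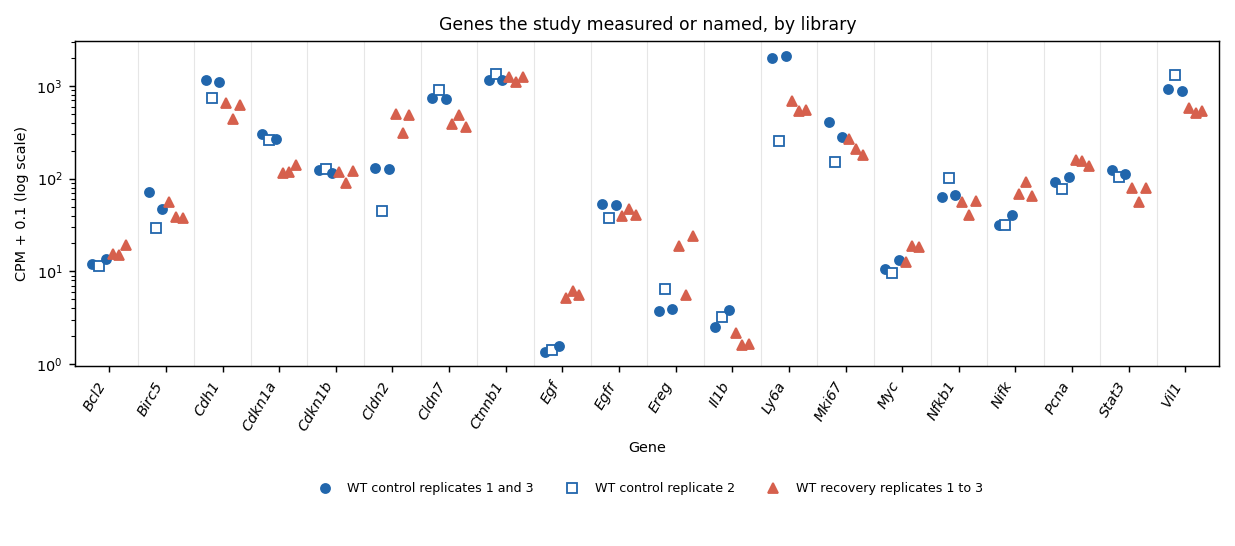
Level of 20 tested genes of growth, junctions and inflammation in each WT library, as CPM + 0.1 on a log axis, with symbols as in the plot of the Hox genes. Cldn2, Egf and Nifk have all triangles above every control symbol, Cdkn1a and Vil1 have all below, and the symbols of Mki67, Birc5 and Ly6a overlap between groups.

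Most called genes of the tight junction list fell with all 3 controls, but not against control replicate 2 alone. Of 23 claudin and junction genes tested, *Cldn2* was the only one to rise and 9 fell (39.1%, against 12.2% of all genes), with 4 to 11 falls when 1 library was left out (fewest without control replicate 1). With control replicate 2 as the only control 3 rose and 2 fell, and the median log2 fold change was -0.21 in place of -0.52. *Cldn7*, a sealing claudin of the whole epithelium, stood at 749.5, 905 and 727 CPM against 386, 489.8 and 357 CPM (log2 fold change -0.95, SE 0.18, adjusted edgeR p 0.00311). The scaffold genes *Tjp1* and *Tjp3*, which encode ZO-1 and ZO-3, stood at 188, 129 and 164 CPM against 80.7, 67.8 and 79.1 CPM and at 264, 281 and 249 CPM against 159.5, 151 and 145 CPM (log2 fold changes -1.08 and -0.80). In all 3 genes every recovery library was below every control. *Cdh1*, which encodes E-cadherin, stood at 1157, 741 and 1101 CPM against 651, 439.6 and 631 CPM (adjusted p 0.0179), a call lost without control replicate 1, control replicate 3 or recovery replicate 2 (adjusted p 0.059 to 0.0795).

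Called goblet cell genes mostly rose. Of 19 tested 7 rose (36.8%, against 10.0% of all genes), 1 fell and 11 were not called, the median log2 fold change was 0.87, and 5 to 9 rose when 1 library was left out. *Muc2* (GRCm38 chromosome 7, 141690340 to 141754693), the gel-forming mucin of the colon, stood at 1890, 1384 and 1915 CPM against 5694, 11680 and 6556 CPM (log2 fold change 2.21, SE 0.32, adjusted edgeR p 0.000768). *Spdef*, the transcription factor of goblet cell maturation, stood at 26.7, 22.9 and 28.9 CPM against 100, 194.5 and 99.42 CPM (log2 fold change 2.33, SE 0.25, adjusted edgeR p 0.000138), and *Agr2*, a protein disulfide isomerase needed to make mucin, at 1009, 296 and 1331 CPM against 3004, 5815 and 3084 CPM (log2 fold change 2.17). Recovery replicate 2 was the highest library in all 3, and the groups did not overlap. The call of *Agr2* was lost with the WT libraries alone (adjusted edgeR p 0.0546). Against control replicate 2 alone 6 of the 19 were called higher. The member that fell was *Klf4*, a factor of differentiated surface and goblet cells, at 691, 512 and 585 CPM against 221, 225 and 235 CPM (log2 fold change -1.39, SE 0.21, adjusted edgeR p 0.000996).

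Of 21 enteroendocrine genes 6 rose (28.6%, against 10.0% of all genes) and none fell, and 4 to 8 rose when 1 library was left out (8, with 3 that fell, without control replicate 2). The median log2 fold change was 0.85. *Chga*, which encodes the granule protein chromogranin A, stood at 50.5, 33.4 and 43.5 CPM against 177, 216 and 103 CPM (adjusted edgeR p 0.0107). *Tph1*, the enzyme of serotonin synthesis in enterochromaffin cells, stood at 12.4, 6.29 and 13.1 CPM against 46.9, 37.4 and 27 CPM (adjusted p 0.0125), and *Pcsk1*, a prohormone convertase, at 7.04, 13.5 and 8.99 CPM against 49.4, 43.8 and 26.6 CPM (adjusted p 0.00438). The hormone gene *Iapp* had 2 reads in the controls and 563 in recovery, a ratio of 272 (95% counting interval 74.9 to 2250). All 4 had every recovery library above every control, and none was called against control replicate 2 alone, where 1 of the 21 rose and 2.8% of all genes did. In bulk tissue, more cells of a type and more RNA per cell cannot be told apart, here and for every list below.

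Crypt and proliferation genes gave a mixed picture. Of 21 stem cell and Wnt target genes 3 rose (14.3%, against 10.0% of all genes) and none fell. *Cd44*, an adhesion receptor of crypt cells, stood at 32.6, 50.9 and 31.8 CPM against 152, 116 and 124 CPM (log2 fold change 1.77, SE 0.40, adjusted edgeR p 0.00646), and the other 2 were *Slc12a2*, the basolateral chloride uptake cotransporter, at 335, 119.9 and 359 CPM against 699, 635 and 721 CPM, and the tetraspanin gene *Tspan8* at 633, 1027 and 722 CPM against 1306, 2373 and 1430 CPM. None of 25 mitosis genes was called by edgeR or DESeq2, none had an unadjusted p under 0.05 in edgeR and limma-voom called 4, with a median log2 fold change of -0.19, and their summed level was 1900, 730.0 and 1360 CPM in the controls and 1560, 1010 and 1000 CPM in recovery, an overlap in which control replicate 2 was lowest and control replicate 1 highest. The median was -0.51 without control replicate 2 and 0.64 against it alone. Of 30 DNA replication genes 3 rose, the same share as of all genes (10.0%), and 0 to 3 rose when 1 library was left out (fewest without control replicate 2). Of 20 genes that mark the fetal-like epithelium of repairing crypts 2 fell (10%, below the 12.2% of all genes), and 1 to 7 fell when 1 library was left out (most without control replicate 2). The only call against control replicate 2 alone was a rise, and the median of that list was 0.49 in place of -0.87.

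Called ribosome biogenesis genes rose, also against control replicate 2 alone. Of 30 tested 11 rose (36.7%, against 10.0% of all genes) and none fell. When 1 library was left out 6 to 11 rose (fewest without control replicate 1), and with the WT libraries alone 5 rose. Against control replicate 2 alone the median log2 fold change was 0.84 in place of 0.45. *Nop58*, a core protein of the snoRNPs that methylate ribosomal RNA, stood at 62.7, 61.3 and 77 CPM against 141, 162 and 137 CPM (log2 fold change 1.13, SE 0.16, adjusted edgeR p 0.000734). *Utp14a*, a subunit of the small subunit processome, stood at 21, 13.2 and 21.8 CPM against 31.1, 43.3 and 34.4 CPM (adjusted p 0.00362), and *Wdr12*, of the complex that matures the large subunit, at 16.1, 12.2 and 20.6 CPM against 27.5, 34.4 and 26 CPM (adjusted p 0.00756). The folds were small and the groups did not overlap in any of the 3. The summed level of the list was 1530, 1030 and 1660 CPM in the controls and 2190, 2150 and 2110 CPM in recovery.

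Of 24 brush border and nutrient uptake genes 6 rose (25%, against 10.0% of all genes) and 2 fell (8.33%, against 12.2%). Without control replicate 2 the counts were 11 and 2, where 12.2% of all genes rose. With the WT libraries alone they were 3 and 1. Against control replicate 2 alone the median log2 fold change was 0.31 in place of 0.81. Of 12 bile acid genes 3 rose and 1 fell (2 without control replicate 2), 25% and 8.33% of the list, against 10.0% and 12.2% of all genes. *Nr1h4*, which encodes the bile acid receptor FXR, stood at 104, 157 and 110.3 CPM against 324, 352 and 406 CPM (log2 fold change 1.54, SE 0.27, adjusted edgeR p 0.00176), and *Slc51b*, a subunit of the basolateral bile acid exporter, at 15.6, 57.4 and 18.2 CPM against 91.1, 174 and 124 CPM (log2 fold change 2.10). Both were lower in control replicate 2 than in any recovery library but were not called against it alone (adjusted p 0.0773 and 0.121). *Slc10a2*, the apical bile acid uptake carrier of the ileum, stood at 8.41, 286 and 9.43 CPM against 925, 1013 and 1414 CPM (log2 fold change 3.46, adjusted p 0.0228), with control replicate 2 between the groups, and its call was lost without control replicate 1 (0.0535) or recovery replicate 3 (0.0556). The member that fell was *Slco2a1*, the prostaglandin uptake carrier, at 168, 257 and 119 CPM against 67.9, 67.4 and 51.5 CPM (log2 fold change -1.54, SE 0.29, adjusted edgeR p 0.0026).

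Of 35 xenobiotic genes 6 rose (17.1%, against 10.0% of all genes) and 2 fell (5.71%, against 12.2%), and without control replicate 2 22 rose and 3 fell, where 12.2% of all genes rose. The 2 falls were lost without recovery replicate 2, with the *Xist* covariate and with the WT libraries alone. The counts against control replicate 2 alone were 4 and 1, and the median log2 fold change was -0.11 in place of 0.66. Their summed level was 3170, 19900 and 3050 CPM in the controls and 14200, 20600 and 16900 CPM in recovery. *Gsta1*, a glutathione transferase with close copies, stood at 36.8, 34.1 and 33.1 CPM against 70.0, 132 and 176 CPM (log2 fold change 1.86, SE 0.34, adjusted edgeR p 0.00235). Of 25 genes of ketogenesis and fatty acid oxidation 8 rose (32%, against 10.0% of all genes) and 2 fell (8%, against 12.2%). Without control replicate 2, where 12.2% of all genes rose and 13.5% fell, 14 rose and 1 fell. With it as the only control, where 2.8% of all genes rose and 3.63% fell, 1 rose and 2 fell. Without control replicate 1 only 1 of them rose, and without control replicate 3 only 2. Both falls seen with all controls were lost without recovery replicate 1 or 3. With the WT libraries alone the only call was 1 rise, and with the *Xist* covariate 4 rose and 1 fell. *Hadhb*, of the mitochondrial trifunctional protein, stood at 152, 308 and 164 CPM against 399.6, 477 and 466 CPM (adjusted p 0.0104; 0.0553 without control replicate 1).

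Of 28 electrolyte and water transport genes 5 rose (17.9%, against 10.0% of all genes) and 6 fell (21.4%, against 12.2%), and 2 to 7 rose (fewest without control replicate 3 or recovery replicate 3) and 1 to 3 fell (fewest without recovery replicate 1) when 1 library was left out. *Car1*, a carbonic anhydrase of proximal colonocytes that was chosen after its values were seen, stood at 573, 45440 and 605 CPM against 24300, 43580 and 31130 CPM (adjusted p 0.558), and here too control replicate 2 stood with recovery. *Aqp1*, a water channel, stood at 46.7, 46.5 and 36.9 CPM against 159, 143 and 157 CPM (log2 fold change 1.81, SE 0.26, adjusted edgeR p 0.000734). *Slc26a3*, the chloride and bicarbonate exchanger of surface colonocytes, stood at 1573, 2135 and 1405 CPM against 307, 493 and 686 CPM (log2 fold change -1.78, adjusted p 0.0455), without overlap, and its call was lost whichever library was left out (adjusted p 0.0627 to 0.134). Of 24 epithelial transcription factors 2 rose (8.33%) and 5 fell (20.8%, against 12.2%), and 0 to 6 rose and 3 to 4 fell when 1 library was left out. *Elf3*, an ETS factor of epithelial differentiation, stood at 545, 427 and 449 CPM against 234, 238 and 172 CPM (log2 fold change -1.14, SE 0.17, adjusted edgeR p 0.000996), and *Meis1*, a homeobox partner of Hox proteins, at 9.91, 12.8 and 9.32 CPM against 3.17, 2.29 and 2.78 CPM.

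**Figure D4:**
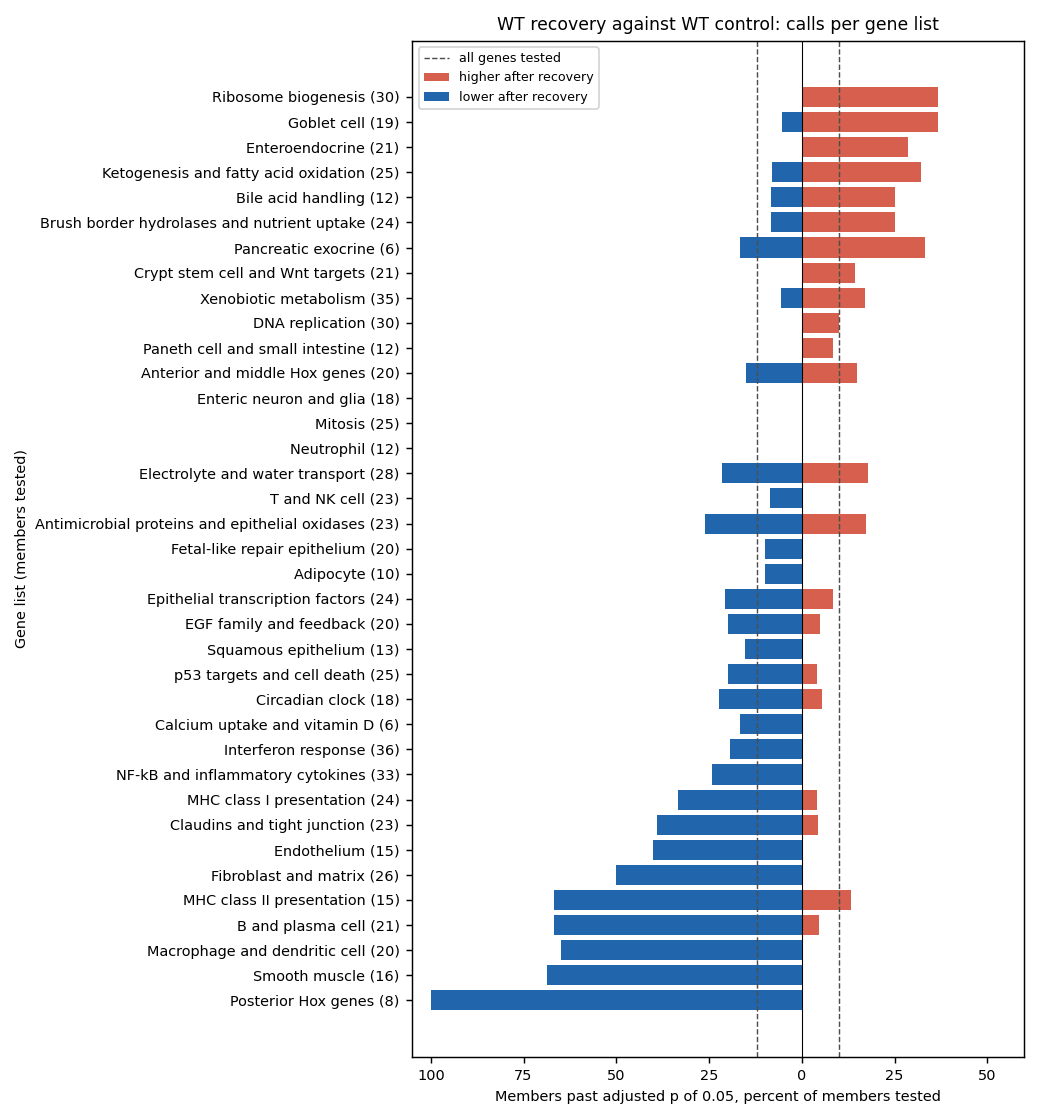
Percent of the tested members of each gene list that rose (right) or fell (left) in WT recovery against WT control, with the number tested in brackets. Dashed lines mark the same shares of all genes tested, 10.0% higher and 12.2% lower, and the posterior Hox, smooth muscle, macrophage, B cell and MHC class II lists have the longest bars to the left.

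Inflammatory genes fell or were not called. Of 33 genes of NF-kB and inflammatory cytokines none rose and 8 fell (24.2%, against 12.2% of all genes), and 5 to 10 fell when 1 library was left out. Against control replicate 2 alone 1 fell, where 3.63% of all genes did. *Nfkbiz*, an atypical inhibitor protein of NF-kB, stood at 146, 115 and 156 CPM against 92.4, 80.5 and 80.7 CPM (log2 fold change -0.72, SE 0.16, adjusted edgeR p 0.00661), and *Tnfaip3*, which encodes the inhibitor A20, at 139.6, 35.5 and 131 CPM against 28.6, 16.1 and 33.1 CPM (adjusted p 0.00549). *Ccl7*, a monocyte chemokine, stood at 2.52, 0.982 and 3.89 CPM against 0.326, 0.215 and 0.118 CPM, and *Il1b* at 2.4, 3.08 and 3.73 CPM against 2.04, 1.51 and 1.54 CPM (adjusted p 0.561). The list names activators and inhibitors of the pathway alike, and the members named here include inhibitors. *Duox2*, the hydrogen peroxide-producing oxidase of the epithelial surface, stood at 442, 339 and 374 CPM against 116, 85.7 and 63.5 CPM (log2 fold change -2.12, SE 0.43, adjusted edgeR p 0.00409). Over the antimicrobial proteins and oxidases 4 of 23 rose (17.4%, against 10.0% of all genes) and 6 fell (26.1%, against 12.2%). When 1 library was left out 1 to 6 rose (fewest without control replicate 1 or 3) and 1 to 7 fell (fewest without recovery replicate 2 or 3). The lectins *Reg3d*, at least 38.6-fold higher when 3 reads are allowed over the control group, and *Reg1*, with a ratio of 67.6 (95% counting interval 22.8 to 330), were among those that rose, at no more than 6.89 CPM in a library. The calls of both were lost when either control replicate 1 or control replicate 3 was left out, and that of *Reg3d* also without control replicate 2, recovery replicate 1 or recovery replicate 3 (adjusted p up to 0.108 and 0.0632). Of 12 neutrophil genes tested edgeR called none, with 1 at an unadjusted p under 0.05, DESeq2 called 1 and limma-voom 5, and the defining genes *Csf3r*, *Retnlg* and *Mmp8* stayed at or under 0.865 CPM in every library. *Retnlg* had no reads in the controls and 22 in recovery, at least 7.08-fold higher when 3 reads are allowed over the control group. *Mmp8* had 2 and 15 reads, a ratio of 7.24 (95% counting interval 1.68 to 65.3). Neither was called (adjusted edgeR p 0.139 and 0.177). *Ly6g*, a surface antigen of neutrophils, stood apart at 517, 0.589 and 464 CPM against 49.5, 6.89 and 80.5 CPM, high in control replicates 1 and 3, and was not called (adjusted p 0.103).

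Called class II antigen presentation genes mostly fell, but their calls depended on single libraries. Of 15 MHC class II genes 10 fell (66.7%, against 12.2% of all genes) and 2 rose, the lysosomal protease genes *Lgmn* and *Ctsl* (the call of *Ctsl* was lost without control replicate 3 or recovery replicate 3), with a median log2 fold change of -1.81. *H2-Eb1*, a class II chain, stood at 301, 308 and 308 CPM against 62.3, 117 and 82.7 CPM, its partner invariant chain *Cd74* at 1376, 1140 and 1410 CPM against 248, 369 and 249 CPM, and *Ciita*, the master regulator of class II transcription, at 30.5, 32.2 and 29.2 CPM against 9.4, 5.59 and 8.4 CPM. Every recovery library was below every control in these genes. The adjusted p were close to the threshold (0.0207, 0.0302 and 0.0215) and rose to at most 0.0704, 0.091 and 0.0782 when 1 library was left out, and at least 1 of the 3 calls was lost without each library other than control replicate 2. The number of members that fell was 0 without recovery replicate 3 and at most 8 without another library. With the *Xist* covariate 4 fell. The only call against control replicate 2 alone was a rise. Of 24 class I genes 8 fell (33.3%, against 12.2% of all genes) and 1 rose, with 2 to 9 falls when 1 library was left out (fewest without control replicate 1 or recovery replicate 3) and 3 rises without control replicate 2. Of 36 interferon response genes 7 fell (19.4%, against 12.2%) and none rose, with 4 to 8 falls (fewest without control replicate 1 or recovery replicate 3). With the *Xist* covariate 5 class I and 4 interferon response genes fell.

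Class II promoters are known to share a Y box, bound by the factor NF-Y, and interferon-induced promoters an interferon-stimulated response element. The 250 bases before each start in the RefSeq promoter table (GRCm38.p6) were searched on both strands, and 12211 of the genes tested had a promoter there by symbol or Ensembl ID. The letters CTGATTGG, which hold the inverted CCAAT box, were found in 4 of the 12 class II genes with a promoter, 3 of them among the 7 that fell, against 5.91% of all 12211. The pair of half-sites TTTC and TTTC, with 2 bases of any kind between them, was found in 16 of 24 interferon genes, 5 of them among the 6 that fell, against 3.37% of all. A match is a description of these windows only. Windows of genes that fell are shown with the match in capitals, 5′ to 3′ on the strand of the gene and with 30 bases on either side, as examples of the promoters of both families that hold a match, which in *Irgm2* reads on the other strand:
H2-Eb1 (chr17:34305775-34305842, plus strand): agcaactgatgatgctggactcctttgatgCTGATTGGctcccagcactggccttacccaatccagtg
H2-Oa (chr17:34092303-34092370, plus strand): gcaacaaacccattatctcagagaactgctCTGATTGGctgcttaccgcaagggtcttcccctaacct
Gbp5 (chr3:142496739-142496808, plus strand): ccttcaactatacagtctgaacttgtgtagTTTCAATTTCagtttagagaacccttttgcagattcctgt
Gbp7 (chr3:142530253-142530322, plus strand): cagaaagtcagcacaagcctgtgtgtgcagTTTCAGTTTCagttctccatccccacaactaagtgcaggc
Irgm2 (chr11:58214883-58214952, plus strand): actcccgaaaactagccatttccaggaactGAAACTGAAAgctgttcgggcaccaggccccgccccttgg

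The genes behind these windows differed in how their calls held. *H2-Oa*, a chain of the class II editing heterodimer of B cells, stood at only 0.275, 1.64 and 2.74 CPM against 0.163, 0.215 and 0.0591 CPM (adjusted p 0.0375), and its call was lost without control replicate 3 (0.136) and without each recovery library in turn (at most 0.117). *Gbp5*, an interferon-induced GTPase that assembles on bacteria, stood at 13.8, 5.89 and 11.7 CPM against 2.89, 1.15 and 1.18 CPM (log2 fold change -2.56, SE 0.52, adjusted edgeR p 0.00413), and *Gbp7* at 51.9, 31.2 and 53.6 CPM against 20.4, 18.7 and 16.7 CPM (log2 fold change -1.29, adjusted p 0.00367). *Irgm2*, an immunity-related GTPase that shares exon bases with *Igtp*, stood at 100.2, 75.2 and 99.4 CPM against 45.8, 40.2 and 35.7 CPM (adjusted p 0.0107). Guanylate-binding and class II genes have close copies, and reads could have been split among them. None of these 5 genes was called against control replicate 2 alone.

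Called genes of cells outside the epithelium mostly fell. Of 16 smooth muscle genes 11 fell and none rose (68.8% lower, against 12.2% of all genes), the median log2 fold change was -1.80, and 6 to 14 fell when 1 library was left out (fewest without recovery replicate 3). *Myh11* (GRCm38 chromosome 16, 14194527 to 14291408), the smooth muscle myosin heavy chain, stood at 1547, 1163 and 982 CPM against 257, 421 and 193 CPM (log2 fold change -2.08, SE 0.49, adjusted edgeR p 0.00873). *Synm*, an intermediate filament protein of muscle, stood at 238, 127 and 172 CPM against 29.9, 36.4 and 22.9 CPM (adjusted p 0.00323), and *Smtn*, which encodes smoothelin, at 124, 86.9 and 84.1 CPM against 24.3, 32 and 13.6 CPM (adjusted p 0.00487). The summed level of the list was 8450, 6910 and 5890 CPM in the controls and 1850, 3370 and 1530 CPM in recovery, so that control replicate 2 stood with the other controls here. Against it alone 2 of the 16 fell, and the median was -1.77.

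Of 26 fibroblast and matrix genes 13 fell (50%, against 12.2% of all genes) and none rose, with 7 to 13 falls when 1 library was left out (fewest without recovery replicate 3). Against control replicate 2 alone, where 3.63% of all genes fell, 2 did. *Col4a1* and *Col4a2*, which encode chains of basement membrane collagen from a shared promoter and overlap on opposite strands, stood at 88.2, 54.3 and 61.6 CPM against 19, 19.3 and 18.8 CPM and at 59.96, 35.03 and 38.06 CPM against 10.3, 12.3 and 8.87 CPM (log2 fold changes -1.84 and -2.08, adjusted edgeR p 0.002 and 0.0029). *Fn1*, which encodes fibronectin, stood at 220.0, 71.1 and 123 CPM against 20.5, 34.9 and 20.8 CPM (adjusted p 0.00186). *Grem1*, a BMP antagonist of the muscle and crypt base stroma, stood at 50.4, 9.56 and 36.7 CPM against 5.9, 1.44 and 4.91 CPM (log2 fold change -2.96, SE 0.57, adjusted edgeR p 0.00329). Of 15 endothelial genes 6 fell (40%, against 12.2%) and all 15 had negative log2 fold changes, and 0 to 5 fell when 1 library was left out (fewest without recovery replicate 2). Among 18 enteric neuron and glia genes edgeR called none, with 3 at an unadjusted p under 0.05, DESeq2 called 1 and limma-voom 4, and their median log2 fold change was -0.48.

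The macrophage and B cell lists also held falls. Of 20 macrophage and dendritic cell genes 13 fell (65%, against 12.2% of all genes) and none rose. When 1 library was left out 11 to 14 fell, and against control replicate 2 alone, where 3.63% of all genes fell, 6 did. *C1qb*, a complement subunit made by tissue macrophages, stood at 21.7, 13 and 19.6 CPM against 3.79, 3.73 and 2.01 CPM (log2 fold change -2.51, SE 0.43, adjusted edgeR p 0.00177; 0.0439 against control replicate 2 alone). *Cx3cr1*, the fractalkine receptor of resident macrophages, stood at 4.09, 2.88 and 2.14 CPM against 0.529, 0.215 and 0.591 CPM (log2 fold change -2.73), and *Ccr2*, the chemokine receptor of incoming monocytes, at 9.83, 5.37 and 9.6 CPM against 2.12, 1.94 and 0.769 CPM (log2 fold change -2.35). In all 3 the groups did not overlap. Of 21 B and plasma cell genes 14 fell (66.7%, against 12.2% of all genes), with 8 to 15 falls when 1 library was left out (fewest without recovery replicate 1 or 3) and 7 with the *Xist* covariate. *Sdc1*, a syndecan that epithelial cells also make, rose, a call lost without control replicate 1 or 3 or any 1 recovery library. *Tnfrsf17*, which encodes the plasma cell receptor BCMA, stood at 2.28, 1.57 and 2.25 CPM against 0.0814, 0.287 and 0.177 CPM (log2 fold change -3.54, SE 0.68, adjusted edgeR p 0.00373). *Cd79a*, of the B cell receptor, stood at 0.983, 6.09 and 7.62 CPM against 0.203, 0.43 and 0.0591 CPM (adjusted p 0.0321), with control replicate 1 far below the other controls, and its call was lost without control replicate 3 (0.0793) or any 1 recovery library (at most 0.105).

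T and NK cell genes behaved otherwise. Their summed level was 23.6, 213 and 36 CPM in the controls and 80.7, 235 and 86.1 CPM in recovery. Control replicate 2 and recovery replicate 2 were high, and control replicates 1 and 3 were below every recovery library. Of 23 tested 2 fell (8.7%, below the 12.2% of all genes), *Cd4* at 1.02, 1.57 and 1.7 CPM against 0.366, 0.359 and 0.355 CPM and *Ccr7*, whose call was lost whichever library was left out. Neither was called with the *Xist* covariate, and 8 rose and 1 fell without control replicate 2. Adipocyte genes summed to 88.3, 1150 and 77.9 CPM in the controls and 423, 355 and 291 CPM in recovery. Of 10 tested *Plin4*, of the lipid droplet coat, was the only one called, lower, a call lost when any 1 library other than control replicate 3 was left out. Without control replicate 2 3 of the 10 rose, and the median log2 fold change turned from -1.52 to 2.59. The part of the muscle, stroma and immune cell levels in the changes of epithelial genes was not tested.

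**Figure D5:**
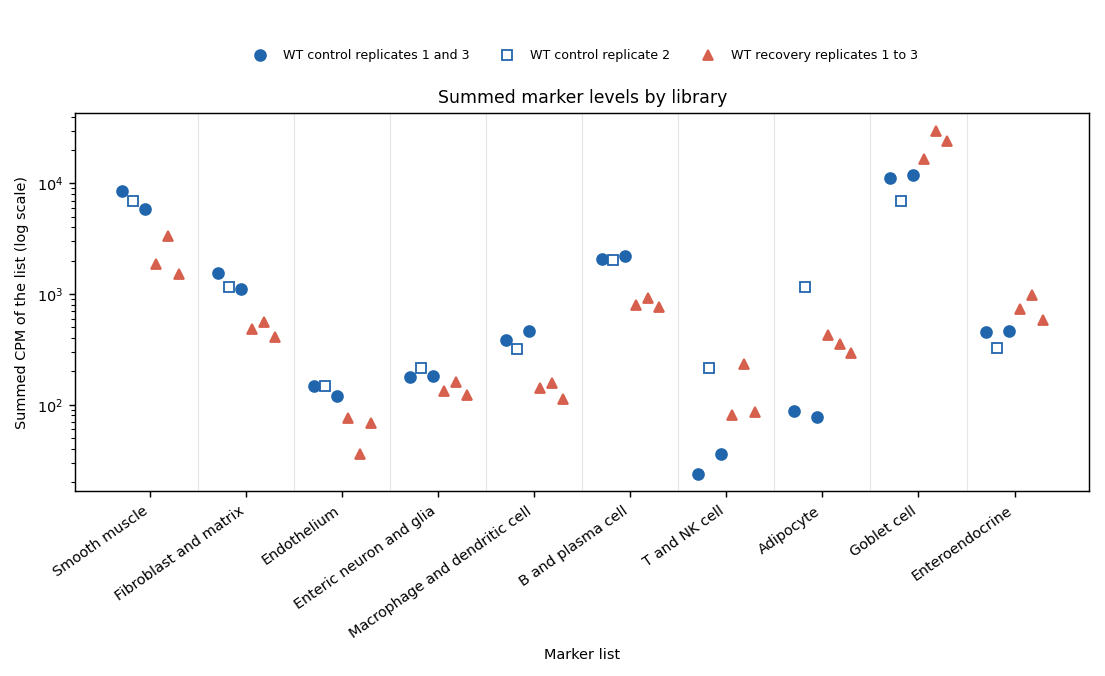
Summed CPM of 10 marker lists in each WT library on a log axis, with symbols as in the plot of the Hox genes. Muscle, matrix, endothelial, macrophage and B cell sums lie below every control in all 3 recovery libraries, goblet and enteroendocrine sums lie above, and T cell and adipocyte sums are high in control replicate 2.

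Of 18 clock genes 1 rose (5.56%, against 10.0% of all genes) and 4 fell (22.2%, against 12.2%), and 1 to 4 fell when 1 library was left out (fewest without recovery replicate 3). *Hlf*, a clock-controlled transcription factor of the PAR bZIP group, stood at 8.3, 10.8 and 5.59 CPM against 1.79, 2.01 and 1.36 CPM (log2 fold change -2.25, SE 0.51, adjusted edgeR p 0.00643), and *Nfil3*, which opposes that group at the same sites, at 1.53, 2.03 and 2.08 CPM against 10.9, 5.45 and 11.5 CPM (log2 fold change 2.31, SE 0.54, adjusted edgeR p 0.00814). The time of day at which tissue was taken was not given in the sources used here. Of 25 p53 target and cell death genes 1 rose (4%, against 10.0% of all genes) and 5 fell (20%, against 12.2%). The rise was not called when any 1 library other than control replicate 2 was left out. When 1 library was left out 3 to 5 fell (3 without control replicate 1 or 3 or recovery replicate 2), and 1 fell against control replicate 2 alone. *Mcl1*, an antiapoptotic member of the Bcl2 family, stood at 673, 461 and 705 CPM against 282, 365 and 321 CPM (adjusted p 0.00228). Of 12 Paneth cell and small intestine genes *Nupr1* alone was called, and *Defa24*, a Paneth cell defensin, had 4 reads in recovery and none in the controls. Of 6 pancreatic genes tested 2 rose and 1 fell. The fall, of *Cela1*, was not called without control replicate 1 or 3 or recovery replicate 1 or 3, and 1 to 2 rose when 1 library was left out (1 without control replicate 3 or any 1 recovery library). The digestive cofactor gene *Clps* stood at 4.6, 0.524 and 4 CPM against 12.7, 64.5 and 9.58 CPM (log2 fold change 3.22, adjusted edgeR p 0.007). With the WT libraries alone no pancreatic gene was called, *Clps* included.

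The same comparison in *Cldn2*KO mice, which shares no library with the WT one, gave 3291 called genes (19.4%), 1598 higher (9.43%) and 1693 lower (10.0%). Of the 3767 WT calls, 3055 had the same sign in *Cldn2*KO and 1453 were also called there with that sign. *Hoxb13* was at 444, 494 and 570.1 CPM in the *Cldn2*KO controls, none of them low as WT control replicate 2 was, so the list counts of the 2 genotypes rest on different controls. In *Cldn2*KO 15 of 16 smooth muscle genes and 7 of 15 class II genes fell, and 9 of 19 goblet cell genes rose, as most called members of these lists did in WT. The class II falls began from unlike levels. *Cd74* stood at 31.25, 10.82 and 116.8 CPM in the *Cldn2*KO controls and *Ciita* at 0.887, 0.333 and 4.41 CPM. Both were below every WT control and WT recovery library, and this gap was not tested. Other lists differed in their counts. Of the 33 NF-kB and cytokine genes 8 rose and 3 fell in *Cldn2*KO, of the 23 antimicrobial and oxidase genes 11 rose and 1 fell. Of the 23 T and NK cell genes 8 rose there. Tested gene by gene, the difference between genotypes was called for 1 member each of the first 2 of these lists. Of 30 ribosome biogenesis genes edgeR called none in *Cldn2*KO, with 1 at an unadjusted p under 0.05, DESeq2 called none and limma-voom 1, against 11 in WT by edgeR. A test of the difference between the 2 responses called 22 genes (0.13% of those tested), 18 with the lower (0.106%) and 4 with the higher (0.0236%) response in WT. The number was 0 to 316 when 1 library was left out. It was 0 by edgeR without any 1 of 5 libraries (WT recovery replicate 2 or 3, *Cldn2*KO control replicate 1 or 2, *Cldn2*KO recovery replicate 2), with 2476 to 2932 genes then at an unadjusted p under 0.05. With all libraries DESeq2 called 879 and limma-voom 1762. None of the 22 was a ribosome biogenesis gene, of which 11 had an unadjusted p under 0.05 in edgeR, DESeq2 called 3 and limma-voom 4. *Duox2* stood at 78.8, 106 and 67.4 CPM in the *Cldn2*KO controls, below every WT control, and at 98.1, 342 and 286 CPM in *Cldn2*KO recovery. It fell in WT and rose in *Cldn2*KO (log2 fold changes -2.12 and 1.53, adjusted edgeR p 0.00409 and 0.0201), a difference of -3.65 (SE 0.60, adjusted p 0.0361). *Nfkbiz*, at 48.8, 60.7 and 52.7 CPM in the *Cldn2*KO controls and thus also below every WT control, fell in WT and rose in *Cldn2*KO (-0.72 and 0.98, a difference of -1.70, SE 0.23, adjusted edgeR p 0.0155). *Tjp3*, at 168, 184 and 189 CPM in the *Cldn2*KO controls, was likewise below every WT control. It fell in WT and was not called in *Cldn2*KO (-0.80 and 0.28, the latter with an adjusted edgeR p of 0.116), with a difference of -1.08 (SE 0.17, adjusted edgeR p 0.0272). *Cldn2* itself stood at no more than 0.557 CPM in the *Cldn2*KO libraries of this comparison, and no difference is given for it.

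Several genes named here share exon bases with another annotated gene. The partner is on the other strand for *Egf*, *Ereg*, *Tjp3*, *Slc51b*, *Slco2a1*, *Vil1*, *Synm*, *Smtn*, *Fn1*, *Rnf152*, *Utp14a*, *Wdr12*, *Elf3*, *Meis1*, *Ciita*, *H2-Oa*, *Il1b*, *Hoxa11* and *Xist*, and on the same strand for *Nop58*, *Gbp7*, *Cd74*, *Hoxa9* and *Hoxd10*. Whether counting used strand was not stated, so the values of these genes are uncertain to that extent.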

How the data were processed

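RNA-seq read counts of 18 mouse colon libraries were taken as the authors deposited them: raw counts per gene, in a column per lane, with no normalization. Per the labels the reads were aligned to GRCm38 with HISAT2 and counted with featureCounts of the Subread package, whereas the study's methods name TopHat2. Versions were not given in the sources used here. Lanes of a library were summed, since they differed by little more than sampling noise (chi-square divided by its degrees of freedom, 1.08 to 1.18). Genes passing edgeR's filterByExpr (16937) were fitted over all 18 libraries and 6 groups with TMM scaling and the robust quasi-likelihood test (edgeR 4.0.16, R 4.3.3, common dispersion 0.0993), with Benjamini-Hochberg adjustment over all genes. With 3 libraries against 3, an exact permutation test of a single gene cannot go below p = 0.1. Alternatives were DESeq2 1.42.0, limma-voom (limma 3.58.1), other scalings, filters and thresholds, an *Xist* covariate, the 6 WT libraries alone, and fits without single libraries. Genes were named by rule, from called genes whose groups did not overlap: the 15 largest changes a direction with a mean of at least 10 CPM, the 10 largest that were also called against WT control replicate 2 alone, up to 6 called members of each list, and all genes of the study, posterior Hox and sex-linked lists. Some genes that the rule names were counted in their lists but are not reported here. Members and lists were chosen with earlier results of these data known. The script was tested on simulated data. Intervals and floors for genes with few reads cover counting error only.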

Additional observations from a re-analysis of the deposited data

Results flagged for a closer look

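The response to recovery differed between WT and *Cldn2*KO mice in 22 genes by edgeR's test of the difference itself, and each is given as the WT minus the *Cldn2*KO log2 fold change. The largest in the negative direction were the antisense transcript *Plet1os* (-6.71), *Apol10a* (-5.05) and *Btnl2* (-4.44), which rose in *Cldn2*KO, and in WT only *Apol10a* of them was called. The controls of the 2 genotypes did not overlap in these 3 genes, nor in any other of the 22 except *Gm28438*. In every gene with a negative difference the WT controls were the higher ones. For *Btnl2* the untreated libraries had 12.7, 50.4 and 11.3 CPM in WT and 0.641, 0.832 and 1.34 CPM in *Cldn2*KO mice, and the recovery libraries 22, 21.9 and 21.6 CPM and 16.6, 19.3 and 18.3 CPM. The difference between the controls was not tested. Genes called lower in WT and higher in *Cldn2*KO were *Duox2* (-3.65), *Zc3h12a* (-3.12), *Nfkbiz* (-1.70), *Neurl3* (-1.48), *Inava* (-1.39), *Ell* (-1.30) and *Arhgef5* (-0.95). *Zc3h12a*, which encodes the RNase Regnase-1, had a log2 fold change of -1.43 in WT and 1.70 in *Cldn2*KO. *Mov10* (-2.23), *Mfn2* (-1.37), *Mst1r* (-1.15), *Tjp3* (-1.08) and *Ttc22* (-1.03) were called lower in WT and not called in *Cldn2*KO. *Ddah1* (-2.18) was called higher in both, and *Sgk2* (-1.90) and *Sqstm1* (-1.39) were called higher in *Cldn2*KO and not called in WT. In the positive direction, *Oat* (1.26) and *Gm28438* (3.79) were called higher in WT and not called in *Cldn2*KO, and *Nt5c3b* (1.5) and *Hist1h4h* (3.04) were called lower in *Cldn2*KO and not called in WT. The number of such genes was 0 when WT recovery replicate 2 or 3, *Cldn2*KO control replicate 1 or 2 or *Cldn2*KO recovery replicate 2 was left out, with 2476 to 2932 genes then at an unadjusted p under 0.05.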

How the results depend on the processing

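The 3767 WT calls became 8125 with limma-voom, 2359 with a covariate for *Xist*, 1819 with the 6 WT libraries alone, 1090 with WT control replicate 2 as the only control and 1408 at an adjusted p under 0.01, and 1874 to 4348 when 1 library was left out (fewest without control replicate 1, and 2334 without recovery replicate 3). The 3291 *Cldn2*KO calls became 5757 with limma-voom, 1887 with the *Xist* covariate and 1438 at an adjusted p under 0.01, and 1997 to 2833 when 1 library was left out (fewest without *Cldn2*KO control replicate 3). The 22 differences between genotypes became 879 with DESeq2, 1762 with limma-voom, 12 with upper-quartile scaling, 6 with the *Xist* covariate and 0 by edgeR at an adjusted p under 0.01 (3141 at an unadjusted p under 0.05), and 0 to 316 when 1 library was left out (316 without *Cldn2*KO recovery replicate 1). The other alternatives stayed within 1.5 times of each count. Of 3767 WT calls 508 were called under every alternative, of at most 15, that gave them an adjusted p. Of the 197 named genes 194 kept direction and side of the threshold with DESeq2, 186 with limma-voom, 148 with the *Xist* covariate, 138 with the WT libraries alone, where not all were tested, and 78 with control replicate 2 as the only control, and the cause was not tested. With control replicate 2 as the only control the log2 fold change changed sign for *Birc5* (0.57), *Egfr* (0.15), *Ly6a* (1.22) and *Mki67* (0.53). It changed sign for *Ctnnb1* with limma-voom (0.09) and for the Y-linked *Eif2s3y* (0.05), *Kdm5d* (0.09) and *Uty* (0.29) with the *Xist* covariate. When 1 library was left out it ranged from -0.46 to 0.19 for *Birc5*, from -0.07 to 0.04 for *Ctnnb1* and from -0.69 to 0.01 for *Mki67*. The median over all genes was -0.04 with TMM, -0.03 with RLE and -0.06 with upper-quartile scaling, and 45.1% of calls were higher, against 42.6% with upper-quartile scaling. No paired analysis was possible because the titles of the recovery libraries carry code numbers and share no replicate number with the controls.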

Other observations

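Of the WT calls, 5 genes were called with one sign against all controls and with the other against control replicate 2 alone, and were chosen after their values were seen. *Thbs4*, a matrix protein of tendon and stroma, stood at 340.3, 1.96 and 370.5 CPM in the controls and 16.6, 17.2 and 37.7 CPM in recovery. *Sval1* stood at 461, 1.31 and 495 CPM against 5.49, 9.9 and 27.7 CPM, and *Capn13*, a calpain gene, at 152, 2.42 and 140.4 CPM against 13, 12.3 and 15.6 CPM. *Clic6* and *Csta1* had the same order, with the recovery libraries above control replicate 2 and below control replicates 1 and 3.

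The neutrophil list was dominated by *Ly6g*, chosen after its values were seen, at 517, 0.589 and 464 CPM in the controls and 49.5, 6.89 and 80.5 CPM in recovery, while the defining neutrophil genes of the list were near 0 in every library. Adipocyte genes were also uneven among the controls. *Adipoq*, which encodes adiponectin, stood at 1.06, 61 and 0.274 CPM in the controls and 15, 3.8 and 1.42 CPM in recovery.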
